A study of Rattus norvegicus with 9 samples.

Results

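Secretions of the seminal vesicle and the coagulating gland were examined here through 7 genes: Semg1, Svs4, Svs3a, Svs3b, Svs5, Svs6 and Tgm4. The genes were chosen as products of these glands after their signals in the BPH and the sham arrays had been seen, so that their values in BPH against sham are a description and carry no test. Probes were assigned through the RefSeq accession printed on the array, which gave 8 probes, 2 of them for Tgm4 and 1 for each of the other genes. The 7 genes were part of 26905 genes on 30356 probes, of which 15163 had a symbol.

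The arrays, 3 in each of 3 groups, recorded transcripts of the prostate of male Sprague Dawley rats, with 1 dye per array. The rats were 6 weeks old when purchased, and the prostates were removed after the 4 weeks of treatment. In the sham group, rats underwent a sham operation, received corn oil subcutaneously and vehicle by mouth. In the BPH group, rats were castrated, injected daily with dihydrotestosterone (3 mg/kg) for 4 weeks and given vehicle by mouth. In the BPH+ghrelin group, castration and dihydrotestosterone were the same. According to the methods, rat ghrelin (20 nmol/kg) was given daily by gavage during the last 2 weeks, while a legend places the removal 4 weeks after the start of ghrelin. A figure legend differs from the methods in giving a ghrelin dose in μg/kg and the intraperitoneal route. Both BPH groups therefore lacked testes and received a defined dose of androgen, while the sham rats kept their testes. The methods give a group size of 3 for the microarrays. The legends give 3 rats per group for the BPH and BPH+ghrelin arrays and no number for the sham arrays. Which lobes of the prostate were taken, and how the adjoining seminal vesicles and coagulating glands were removed, is not stated.

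The seminal vesicles and the coagulating gland, which is the anterior lobe of the rodent prostate, release their fluids together at ejaculation. Seminal vesicle secretory proteins make up most of the protein in the fluid, and transglutaminase 4 from the coagulating gland and the dorsal prostate crosslinks them into the copulatory plug. Synthesis of these proteins depends on androgen and declines after castration. In rat, Semg1 encodes the major clotting protein and substrate of the crosslinking (SVS II), Svs3a and Svs3b encode a closely related pair of clot proteins, and Svs4, Svs5 and Svs6 encode smaller secreted proteins.

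Of the 7 genes, 6 stand next to each other on chromosome 3 of the rat assembly GRCr8, in the order Semg1, Svs3b, Svs4, Svs3a, Svs6 and Svs5, while Tgm4 is on chromosome 8. Semg1, Svs3b and Svs4 are read from the minus strand, and Svs3a, Svs6, Svs5 and Tgm4 from the plus strand. The 120 bases before the annotated start of each gene are printed because the 6 genes of the cluster differed in their signals and include 2 pairs with closely related promoters. Sequences are from RefSeq (GRCr8), 5′ to 3′ in the direction of the gene. Capitals mark the motifs searched on both strands: TATAAA (the core of the TATA box, which positions the start of transcription), GATAAG (a motif bound by GATA factors) and AGAACA (1 arm of the palindrome of steroid response elements); the 3 motifs did not overlap in these windows.
Semg1, chr3:173332262-173332381, minus strand: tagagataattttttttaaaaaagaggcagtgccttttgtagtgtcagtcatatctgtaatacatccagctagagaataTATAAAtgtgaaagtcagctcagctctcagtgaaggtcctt
Svs4, chr3:173369879-173369998, minus strand: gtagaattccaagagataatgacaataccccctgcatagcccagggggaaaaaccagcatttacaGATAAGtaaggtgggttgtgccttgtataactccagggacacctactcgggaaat
Svs3a, chr3:173380965-173381084, plus strand: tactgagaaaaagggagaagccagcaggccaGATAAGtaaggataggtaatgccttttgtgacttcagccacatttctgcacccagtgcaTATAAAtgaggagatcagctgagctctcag
Svs3b, chr3:173351299-173351418, minus strand: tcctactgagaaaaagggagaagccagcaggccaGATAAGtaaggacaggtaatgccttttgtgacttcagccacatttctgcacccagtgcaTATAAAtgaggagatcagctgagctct
Svs5, chr3:173415401-173415520, plus strand: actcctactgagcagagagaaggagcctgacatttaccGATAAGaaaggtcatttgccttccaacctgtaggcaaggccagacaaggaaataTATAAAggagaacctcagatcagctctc
Svs6, chr3:173397572-173397691, plus strand: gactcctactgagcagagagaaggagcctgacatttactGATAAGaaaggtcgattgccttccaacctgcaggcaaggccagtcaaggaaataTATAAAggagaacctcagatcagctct
Tgm4, chr8:131566767-131566886, plus strand: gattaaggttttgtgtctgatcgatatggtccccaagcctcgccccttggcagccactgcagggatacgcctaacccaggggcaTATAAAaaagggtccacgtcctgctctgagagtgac

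Over the full 250 bases before the start, the windows of Svs3a and Svs3b were identical at 96.8% of 253 aligned positions, and those of Svs5 and Svs6 at 85.6% of 257. All other pairs lay between 43.5% (Svs4 and Tgm4) and 54.5% (Svs6 with Svs3a or Svs3b), including the positions with gaps. TATAAA was found in the 250 bases of 7 of the 7 genes and in 12.9% of 33469 such windows of all annotated genes. In 6 of the 7, all but Svs4, it began 27 to 41 bases before the start, and 2.26% of all windows held it within their last 50 bases. GATAAG was found in 5 of the 7, all but Semg1 and Tgm4, 50 to 89 bases before the start, against 6.18% of all windows. AGAACA was found only in Svs5, 199 to 194 bases before the start and outside the printed stretch, against 17.5% of all windows. Genes that arose by duplication share such letters, the 7 windows are no independent draws, and a match describes the sequence and not a binding site.

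Depth and quality of the arrays differed moderately. The 75th percentile of the raw signal was 327 on sham replicate 2 and 587 to 1065 on the other 8 arrays, and 61.3% of probes were well above background on sham replicate 2 against 69.5 to 75% on the others. No spot was saturated. Within a group, the same array was often intermediate, as seen over the 20108 genes well above background on at least 3 arrays, namely BPH replicate 2 for 71.0%, BPH+ghrelin replicate 2 for 68.8% and sham replicate 3 for 73.0%. The sample labels name no slide, and arrays with the same scan time were taken to share 1. By this rule, BPH replicates 1 to 3 shared a slide with BPH+ghrelin replicate 1. A second slide carried BPH+ghrelin replicates 2 and 3 beside sham replicates 1 and 2. The remaining sham array was on a slide without the others. As BPH and sham arrays were never on 1 slide, effects of slide and group cannot be told apart in that comparison. Markers of the labelled tissue were present, as Hoxb13, a transcription factor of prostate epithelium, and Pbsn, the secreted protein probasin, were well above background on all 9 arrays.

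Sham prostates had the highest signals of 5 of the 7 genes. Semg1, Svs4, Svs3a, Svs3b and Tgm4 were lower on every BPH array and on every BPH+ghrelin array than on any sham array, whereas Svs5 and Svs6 were dim in all groups and overlapped between them. The signals of Semg1, Svs4 and Tgm4 also differed between arrays of the same group after castration and dihydrotestosterone, with replicate 3 of both BPH groups lowest. All signals below are log2 values after quantile normalization, and a signal is compared between arrays for 1 probe but not between probes. In these prostate samples, fewer secreting cells and less RNA per cell cannot be told apart. How much coagulating gland or seminal vesicle tissue the samples held is not stated, and its part was not tested.

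**Figure D1:**
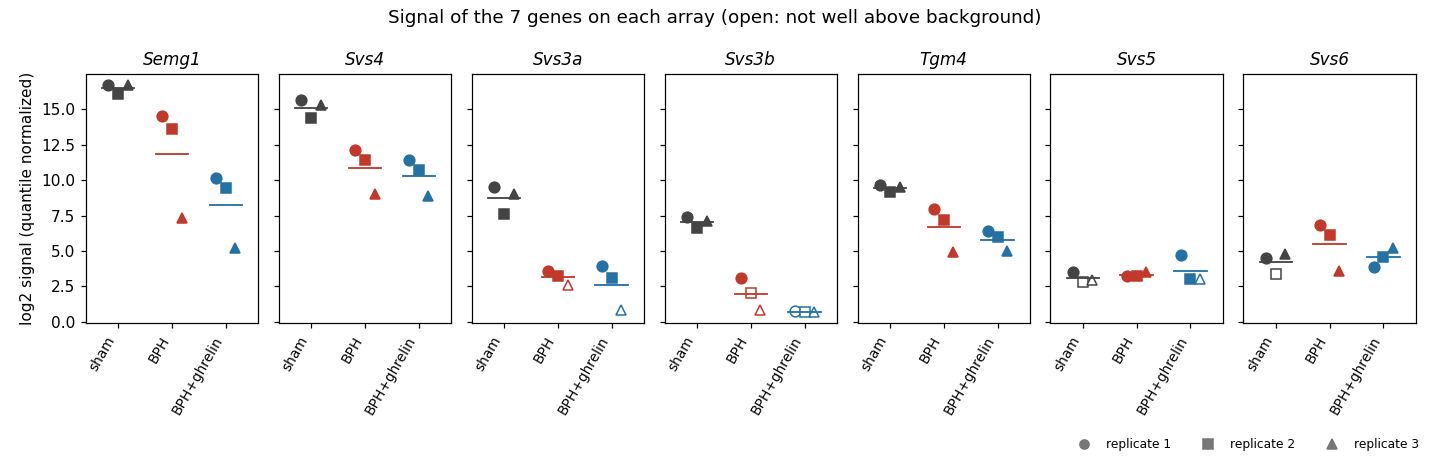
Log2 signal (vertical axis, quantile normalized) of the 7 genes on each of the 9 arrays, by group (horizontal axis); symbols mark the replicate number, open symbols a probe not well above background, and lines the mean of 3 arrays. Semg1 lay at 16.07 to 16.69 in sham, 7.35 to 14.53 in BPH and 5.24 to 10.14 in BPH+ghrelin, while Svs5 and Svs6 overlapped between all groups.

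Semg1 read 16.69, 16.07 and 16.69 on the sham arrays (replicates 1 to 3), 14.53, 13.63 and 7.35 on the BPH arrays, and 10.14, 9.45 and 5.24 on the BPH+ghrelin arrays. The sham arrays were close together, whereas the BPH arrays spanned 7.18 on the log2 scale, with replicate 3 far below the others. On the sham arrays, Semg1 ranked 12, 60 and 12 from the brightest probe, where quantile normalization limits how far arrays can differ. Semg1 was well above background on all 9 arrays. Before normalization, its raw signal was 53328 to 108113 in sham, 194 to 28836 in BPH and 32.7 to 1115 in BPH+ghrelin. The mean was 16.48 ± 0.36 (SD, n = 3) in sham, 11.84 ± 3.91 in BPH and 8.28 ± 2.65 in BPH+ghrelin. A range of at least 2 within a group occurred in 1.57% of all genes in BPH and in 1.99% in BPH+ghrelin.

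Svs4, an abundant secretory protein that binds to sperm, read 15.64, 14.38 and 15.30 on the sham arrays, 12.12, 11.39 and 9.02 on the BPH arrays, and 11.40, 10.68 and 8.85 on the BPH+ghrelin arrays. Both BPH groups lay below sham with a gap of at least 2.26 between the nearest arrays, and they overlapped each other over nearly their whole range. The means were 15.11 ± 0.65, 10.84 ± 1.62 and 10.31 ± 1.32 in sham, BPH and BPH+ghrelin.

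Svs3a read 9.53, 7.61 and 9.04 on the sham arrays, 3.60, 3.22 and 2.63 on the BPH arrays, and 3.91, 3.12 and 0.84 on the BPH+ghrelin arrays. It was well above background in 3 of 3 sham arrays and in 2 of 3 arrays of each BPH group, replicate 3 being the exception in both. Svs3b read 7.37, 6.60 and 7.12 on the sham arrays, 3.13, 2.03 and 0.83 on the BPH arrays, and 0.74, 0.69 and 0.71 on the BPH+ghrelin arrays. It was well above background on 3 of 3 sham arrays, on 1 of 3 BPH arrays and on 0 of 3 BPH+ghrelin arrays, so that the values of the latter are limits of the assay and have no order. The sham arrays were thus separated from all others by gaps of 3.47 or more for both genes. Whether either probe also bound RNA of the other gene was not tested, since probe sequences were not used here.

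Tgm4 read 9.62, 9.13 and 9.49 on the sham arrays, 7.93, 7.15 and 4.93 on the BPH arrays, and 6.42, 6.01 and 4.97 on the BPH+ghrelin arrays, all well above background. Its second, dimmer probe read 8.24, 7.71 and 8.00 in sham, 5.96, 5.65 and 4.60 in BPH, and 5.47, 4.69 and 4.13 in BPH+ghrelin. Both probes placed the arrays in nearly the same order, with sham on top and replicate 3 lowest in each BPH group.

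Svs5 and Svs6 behaved differently from their neighbours. Svs5 read 3.50, 2.80 and 2.92 in sham, 3.22, 3.26 and 3.52 in BPH, and 4.69, 3.05 and 3.05 in BPH+ghrelin, and was well above background on 1, 3 and 2 of the 3 arrays of these groups. Svs6 read 4.53, 3.36 and 4.78 in sham, 6.81, 6.11 and 3.57 in BPH, and 3.86, 4.57 and 5.20 in BPH+ghrelin, and was well above background on 8 of 9 arrays, sham replicate 2 being the exception. Both genes overlapped between all groups. In BPH, Svs6 was lowest on replicate 3 like the 5 genes above, but in BPH+ghrelin replicate 3 was its highest array.

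In BPH against sham, 5 of the 7 genes were lower on every BPH array, and 14.2% of 19548 genes tested showed this pattern. As the genes were chosen from this contrast, nothing is read from that difference. The difference of mean log2 signals, BPH minus sham, was -4.64 for Semg1 (25-fold lower), -4.26 for Svs4 (19.2-fold), and -2.74 for Tgm4 (6.69-fold, or 5.96-fold with its second probe). The measured differences were -5.58 for Svs3a and -5.04 for Svs3b, for which no fold is given, since they were well above background on only 2 and 1 of the 3 BPH arrays. The differences of Svs5 and Svs6 were 0.26 and 1.27, with overlapping arrays. The median over the 7 genes was -4.26, against 0.04 over all genes tested. The sizes rest in part on BPH replicate 3, without which the difference was -2.40 for Semg1, -3.35 for Svs4 and -1.87 for Tgm4. The sizes for dim genes depend on background correction: after normexp correction, they were -2.66 for Svs3a and -1.36 for Svs3b.

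BPH+ghrelin against sham was a comparison of the same kind, since both BPH groups were castrated and given dihydrotestosterone. It shares the sham arrays with the contrast that chose the genes and is no independent support. With limma, 5 of the 7 genes were lower in BPH+ghrelin at an adjusted p under 0.05, while 3.3% of 19195 genes were called lower and 6.29% were called in either direction. Of the 5, Svs3b passed the filter on dim probes only through the sham arrays, where it was high, so that its call adds no support. The same 5 genes were lower on every BPH+ghrelin array than on any sham array, a pattern found in 12.8% of genes tested. The median difference over the 7 genes was -4.80, against 0.04 over all genes.

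Svs3a differed by -6.10 (SE 0.79, limma adjusted p 0.00575), Svs4 by -4.80 (SE 0.88, adjusted p 0.0220), Tgm4 by -3.62 (SE 0.71, adjusted p 0.0261) and Semg1 by -8.20 (SE 1.91, adjusted p 0.0445), or 295-fold. The largest difference, that of Semg1, thus came with the largest adjusted p of these 4, and its BPH+ghrelin arrays spread over 4.90. Svs3a was not well above background on BPH+ghrelin replicate 3 (0.84), so that the size of its difference rests in part on a limit of the assay. Svs3b was well above background on no BPH+ghrelin array, and its signal there is a limit of the assay. Its measured means differed by -6.32 (SE 0.50, limma adjusted p 0.000736). Computed against the lowest signal well above background on each array, its signal was 20.1-fold lower in BPH+ghrelin. That value is no firm bound, as the limit was not the same for all probes. Svs5 differed by 0.52 (SE 0.43, adjusted p 0.510) and Svs6 by 0.32 (SE 0.80, adjusted p 0.851). With 3 arrays in each group, the smallest p of a two-sided exact permutation test is 0.1.

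These calls differed in how far they rested on single arrays and on the slide. With each array left out in turn, Svs3a was called in 6 of 6 limma fits, Svs4 in 3, Tgm4 in 2 and Semg1 in 0 (adjusted p 0.0575 to 0.139 for Semg1). Without BPH+ghrelin replicate 3, the differences were -6.69 for Semg1, -5.21 for Svs3a and -4.07 for Svs4, and for Semg1 they ranged from -9.14 to -6.69 over the 6 fits. After normexp background correction, all 5 were called, with smaller differences for the dim genes Svs3a (-2.69) and Svs3b (-1.51). Sham replicates 1 and 2 and BPH+ghrelin replicates 2 and 3 were on 1 slide, and within it the differences were at least as large as over all arrays for these 4 genes: -9.03 for Semg1, -5.25 for Svs4, -6.58 for Svs3a and -3.89 for Tgm4. With slide as a block, none of the 4 was called (limma adjusted p 0.0537 for Svs3a, 0.151 for Svs4, 0.190 for Tgm4 and 0.230 for Semg1). The fits called Svs3b throughout (adjusted p 0.0313 with the block), but its BPH+ghrelin values lie at the limit of the assay with almost no spread.

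In BPH+ghrelin against BPH, which asks what ghrelin added, 0 of 6 genes tested reached an adjusted p under 0.05 with limma, and 0 had an unadjusted p under 0.05. Of all 19747 genes tested, 1.48% were called and 4168 genes had an unadjusted p under 0.05. The BPH arrays are shared with the contrast that chose the genes. Svs3b did not pass the filter on dim probes here. The median difference was -0.88 over the 7 genes and 0.02 over all genes tested, and for 1 of the 7, Svs3b, each BPH+ghrelin array read lower than each BPH array, at signals that were mostly not above background; 19.3% of all genes showed this pattern.

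Semg1 had the largest difference between BPH+ghrelin and BPH, at -3.56 (SE 1.91, limma adjusted p 0.321). It was among the 12 genes with the most negative differences of all those tested, but BPH replicate 3 (7.35) read below BPH+ghrelin replicates 1 (10.14) and 2 (9.45), and the groups overlapped. The other differences were -0.54 for Svs4 (adjusted p 0.757), -0.52 for Svs3a (0.732), -0.88 for Tgm4 (0.504), -0.95 for Svs6 (0.524) and 0.26 for Svs5 (0.752). For these 5 genes, too, the arrays of both groups overlapped. With 1 array left out in turn, the difference for Semg1 ranged from -5.80 to -2.04 and that for Svs4 from -1.45 to 0.19. On the slide that held the 3 BPH arrays and BPH+ghrelin replicate 1, Semg1 differed by -1.70 and Svs4 by 0.55.

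**Figure D2:**
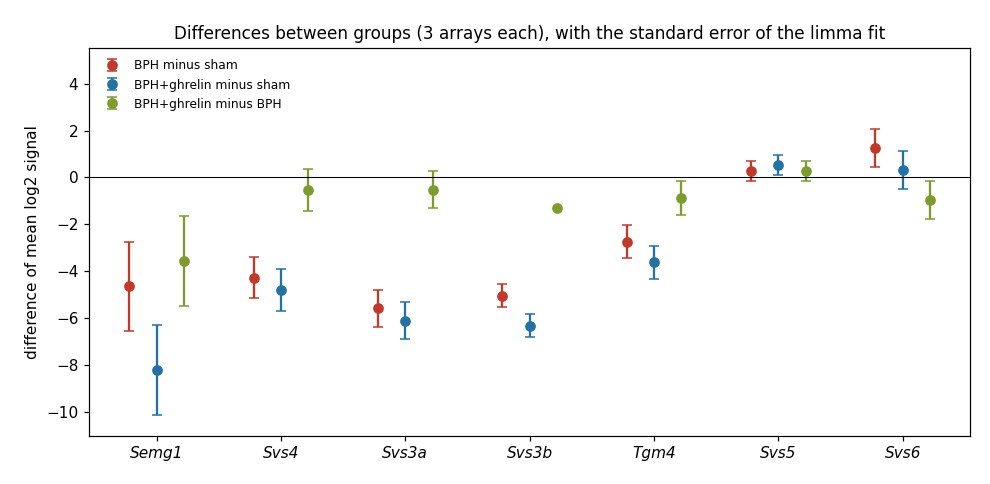
Differences of mean log2 signal (vertical axis) for the 7 genes (horizontal axis) in 3 comparisons of 3 against 3 arrays; bars are standard errors of the limma fit, and Svs3b has none in BPH+ghrelin against BPH, where it was not tested. Semg1, Svs4, Svs3a, Svs3b and Tgm4 lay between -8.20 and -2.74 in both comparisons with sham, and between -3.56 and -0.52 in BPH+ghrelin against BPH.

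As a share of the raw signal of all genes on an array, which does not depend on normalization, the 7 genes together made up 0.384%, 0.247% and 0.373% on the sham arrays. The share was 0.0658%, 0.0375% and 0.00199% on the BPH arrays, and 0.00947%, 0.00547% and 0.00114% on the BPH+ghrelin arrays. The groups with castration and dihydrotestosterone thus lay below sham on every array, and BPH replicate 3 lay below BPH+ghrelin replicates 1 and 2.

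Ratios between 2 genes on the same array were then compared, as the change of a ratio between arrays shows whether both genes differed by the same factor. They are given as differences of log2 signals, and no test was made. The ratio of Semg1 to Svs4 was 1.04, 1.69 and 1.39 on the sham arrays, 2.41, 2.24 and -1.68 on the BPH arrays, and -1.26, -1.23 and -3.60 on the BPH+ghrelin arrays. On BPH replicates 1 and 2, the ratio was 1.04 and 0.87 above the sham mean, as Semg1 differed less from sham than Svs4 did. On BPH replicate 3 and on all BPH+ghrelin arrays, Semg1 was lower relative to Svs4 than on any sham array.

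The ratio of Svs4 to Tgm4 varied less than that of Semg1 to Svs4 in BPH and BPH+ghrelin, but not in sham (SD 0.40 against 0.32). It was 6.02, 5.25 and 5.81 on the sham arrays, 4.19, 4.24 and 4.09 on the BPH arrays, and 4.98, 4.67 and 3.88 on the BPH+ghrelin arrays. Although both genes spanned about 3 on the log2 scale within BPH (3.10 for Svs4 and 3.00 for Tgm4), their ratio had an SD of only 0.07 there (mean 4.17, n = 3). The BPH arrays lay below the sham arrays without overlap, since the difference from sham was larger for Svs4 than for Tgm4. The ratio of Svs4 to Svs6 was as even within BPH (mean 5.35, SD 0.10), but it was 10.5 to 11.1 in sham and 3.65 to 7.54 in BPH+ghrelin.

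The ratio of Semg1 to Tgm4, substrate and enzyme of the plug, was 6.94 to 7.19 on the sham arrays. It was 6.60, 6.48 and 2.41 on the BPH arrays and 3.73, 3.44 and 0.27 on the BPH+ghrelin arrays. All BPH+ghrelin arrays lay below BPH replicates 1 and 2, and BPH replicate 3 lay between BPH+ghrelin replicates 2 and 3. The ratio of the near-identical pair Svs3a and Svs3b was 1.00 to 2.15 in sham, 0.47 to 1.80 in BPH and 0.13 to 3.17 in BPH+ghrelin, and overlapped between all groups. In the latter groups, it was formed from signals that were mostly not above background for Svs3b. The ratio of Svs4 to Svs3a was 6.12 to 6.77 in sham, 6.40 to 8.52 in BPH, which overlapped sham, and 7.48 to 8.01 in BPH+ghrelin. Svs3a was not well above background on replicate 3 of either BPH group, where the ratios were 6.40 and 8.01.

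**Figure D3:**
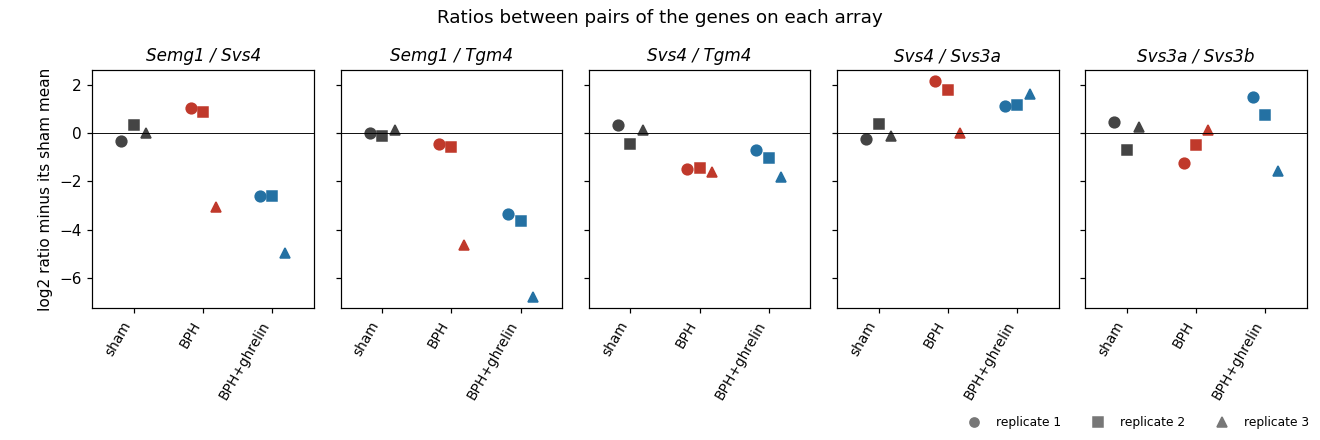
Log2 ratio of 5 pairs of genes on each array, minus the mean of the sham arrays (vertical axis), by group (horizontal axis), with symbols for the replicate number. The ratio of Svs4 to Tgm4 was tight within BPH (SD 0.07), whereas that of Semg1 to Svs4 separated BPH replicate 3 and all BPH+ghrelin arrays from the sham arrays.

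The order of the arrays was compared for members well above background on all arrays of a group. The shares beside them are over the 20108 genes well above background on at least 3 arrays, which is a wider filter. In BPH, replicate 1 was highest, replicate 2 in the middle and replicate 3 lowest for Semg1, Svs4, Svs6 and Tgm4, but not for Svs5, and 36.1% of all 20108 genes had this order. In BPH+ghrelin, it was found for Semg1, Svs4 and Tgm4, but not for Svs6, and for 33.1% of all genes. In sham, replicate 2, the array with the dimmest raw signal, was the lowest for Semg1, Svs4, Svs3a, Svs3b and Tgm4 and for 45.4% of all genes.

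Likeness of a gene to Semg1 was described by Pearson's r over the 9 arrays, which fall into 3 groups, and by r after the mean of each group had been subtracted. Tgm4 (0.97 over 9 arrays, 0.98 within groups) and Svs4 (0.94 and 0.96) followed Semg1 closely. Values were lower for Svs3b (0.87 and 0.75) and Svs3a (0.86 and 0.69), and lowest for Svs6 (0.14 and 0.56) and Svs5 (-0.23 and 0.20). Well above background were Svs3b on 4, Svs3a on 7, Svs6 on 8 and Svs5 on 6 of the 9 arrays. Their r thus includes signals near background and cannot be ranked against that of Tgm4 and Svs4. An r over 0.9 was found for 137 of 20108 genes (0.681%). Spearman's rho with Semg1 was 0.98 for both Tgm4 and Svs4. The arrays farthest from the median of Semg1 were replicate 3 of both BPH groups, and without these 2 arrays r over the remaining 7 was 0.97 for Tgm4 and 0.88 for Svs4.

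Likeness was ranked only among genes with a symbol. Of these, the gene most like Semg1 by both measures was Msmb, which encodes microseminoprotein beta, a secreted protein of prostate epithelium (r 0.995 over 9 arrays, 0.996 within groups and 0.993 without the 2 arrays). Msmb read 16.22, 15.99 and 16.11 on the sham arrays, 12.80, 11.98 and 4.79 on the BPH arrays, and 8.41, 7.37 and 3.45 on the BPH+ghrelin arrays. Its arrays had the same order as those of Semg1 in BPH and BPH+ghrelin, and BPH replicate 3 again lay far below the others. Apart from the 7 genes, the next over 9 arrays were Lrrc34 (0.97), Tfap4, a transcription factor (0.97), Traf3ip2, an adaptor of interleukin-17 receptors (0.97), and RT1-CE16, a class I histocompatibility gene (0.96). Within groups, and again apart from the 7 genes, Defb50, a beta-defensin (0.98), Ifngr2, a chain of the interferon gamma receptor (0.98), RT1-CE15 (0.98) and Tns4, a tensin (0.97), followed Msmb. Without the 2 arrays, r was only 0.80 for Defb50, 0.46 for Ifngr2, 0.70 for RT1-CE15 and 0.74 for Tns4. It was 0.99 for Lrrc34, 0.96 for Tfap4, 0.95 for Traf3ip2 and 0.95 for RT1-CE16. Defb50 read 15.39 to 15.72 in sham, 8.86 to 11.74 in BPH and 9.49 to 11.92 in BPH+ghrelin, and thus separated sham from both other groups as Semg1 did.

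**Figure D4:**
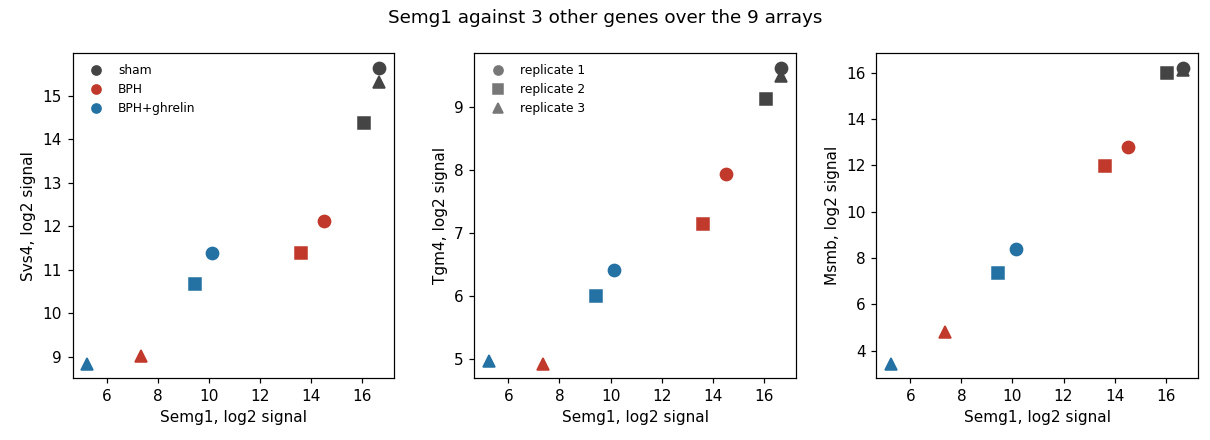
Log2 signal of Svs4, Tgm4 and Msmb (vertical axes) against that of Semg1 (horizontal axes) on the 9 arrays; colours mark the groups and symbols the replicate number. Tgm4 and Msmb were high where Semg1 was high (r 0.97 and 0.995), and replicate 3 of both BPH groups lay at the lower left in all 3 panels.

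The genes around the cluster on chromosome 3 were examined next. Of 21 other genes, which are the 10 before, the 10 after and 1 between the members, 10 were on the array. With limma, 0 of 10 were called in any of the 3 comparisons. An unadjusted p under 0.05 was found for 2, 2 and 0 of them in BPH against sham, BPH+ghrelin against BPH and BPH+ghrelin against sham. Over all genes tested, it was found for 5173 of 19548, 4168 of 19747 and 4556 of 19195. The median difference of the 10 genes between BPH and sham was -0.02. Differences below -1 were found for Wfdc5 (-3.09, adjusted p 0.122) and Slpi (-1.19, adjusted p 0.367), both of the family of whey acidic protein inhibitors. Wfdc5 read 8.33 to 9.58 in sham and 2.96 to 7.72 in BPH, with replicate 3 lowest and not well above background. In BPH+ghrelin, Wfdc5 read 6.86, 6.95 and 7.12, all well above background and with replicate 3 highest. Svs6 and Svs5, whose arrays overlapped with sham, lie at the end of the cluster that faces Slpi, and the 4 members without overlap lie before them.

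**Figure D5:**
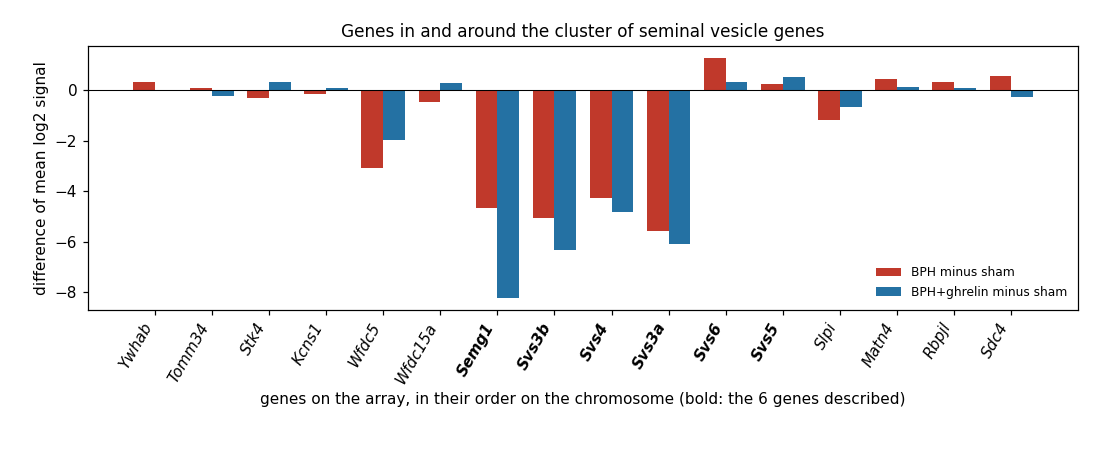
Difference of mean log2 signal from sham (vertical axis) for the genes on the array in and around the cluster, in their order on the chromosome (horizontal axis), for BPH and BPH+ghrelin. Semg1, Svs3b, Svs4 and Svs3a lay between -8.20 and -4.26, and 8 of the 10 other genes between -0.48 and 0.58.

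Other products of the seminal vesicle and the coagulating gland were taken from a list of 16 genes. Of these, 11 were on the array and 6 passed the filter. In BPH against sham, 2 of 6 were called lower and 0 higher, beside 4.34% of all genes called in either direction: Sord, the sorbitol dehydrogenase that makes fructose (-1.41, SE 0.18, adjusted p 0.00732), and Ceacam4, to which the RefSeq table assigns the listed name Ceacam10 (-1.89, SE 0.26, adjusted p 0.00990). Called lower in BPH+ghrelin than in sham were 4 of 6, beside 3.3% of all genes: Ceacam4 (-1.89, adjusted p 0.00688), Sord (-0.97, adjusted p 0.0224), Akr1b1, the aldose reductase that makes sorbitol (-1.40, adjusted p 0.0155), and Serpine2, a protease inhibitor (-1.71, adjusted p 0.00298). Serpine2 was also called lower in BPH+ghrelin than in BPH (-1.59, adjusted p 0.0161). Svs1, Pip, Eppin and Akr1b7 were not well above background on any of the 9 arrays. The summed signal of the 11 genes was 9.51 to 10.39 in sham, 8.50 to 9.77 in BPH and 8.90 to 9.27 in BPH+ghrelin.

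Of the other transglutaminases, which crosslink proteins in skin, blood and most tissues, Tgm1, Tgm2, Tgm3 and F13a1 were on the array and 0 of 4 were called in any comparison with limma. Of them, 1, 1 and 0 had an unadjusted p under 0.05 in BPH against sham, BPH+ghrelin against BPH and BPH+ghrelin against sham. Over all genes tested, 5173 of 19548, 4168 of 19747 and 4556 of 19195 had one. Tgm2, the widely expressed tissue transglutaminase, had means of 10.70, 10.83 and 11.03 in sham, BPH and BPH+ghrelin. F13a1, the subunit of coagulation factor XIII, had means of 7.51, 8.04 and 7.52.

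Regulators of the Wolffian duct and the seminal vesicle were all well above background. Of 6 on the array, 1 was called lower with limma in BPH against sham, Pax2 (-0.93, SE 0.16, adjusted p 0.0210), and 0 in either other comparison. An unadjusted p under 0.05 was found for 3 in BPH against sham, 3 in BPH+ghrelin against BPH and 1 in BPH+ghrelin against sham. Over all genes tested, it was found for 5173 of 19548, 4168 of 19747 and 4556 of 19195. The summed signal of the 6 genes was 11.04 to 11.71 in sham, 10.53 to 11.28 in BPH and 10.83 to 10.99 in BPH+ghrelin. Its part in the signals of the secretory genes was not tested.

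Over the 13 genes of prostate lineage and secretion, the median difference between BPH and sham was 0.02, beside 0.04 over all genes tested. The brightest genes of this list, such as Sbp and Andpro, read at the top of the range that quantile normalization makes equal on all arrays, where differences could not be seen. Pbsn was called lower in BPH than in sham (-2.65, SE 0.23, adjusted p 0.00191 with limma). Its signal was 13.11 to 14.11 on the BPH arrays and 16.16 to 16.41 on the sham arrays, without the spread of Semg1. Called lower in BPH+ghrelin than in sham were Pbsn (-1.89, adjusted p 0.00458) and Msmb (-9.70, adjusted p 0.0345). Msmb differed by -6.25 between BPH and sham (adjusted p 0.115). The summed signal of the 13 genes of this list was 19.68 to 19.72 in sham, 19.48 to 19.49 in BPH and 19.38 to 19.43 in BPH+ghrelin. Pmepa1, a gene induced by androgen, was called lower in BPH+ghrelin than in sham (-0.61, adjusted p 0.0492).

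Markers of other cells that could be present were also compared. Of 12 epididymal and vas deferens genes on the array, 5, 5 and 4 passed the filter in BPH against sham, BPH+ghrelin against BPH and BPH+ghrelin against sham. With limma, 0 of these were called. An unadjusted p under 0.05 was found for 0, 2 and 1 of them, beside 5173 of 19548, 4168 of 19747 and 4556 of 19195 genes tested. Lcn5, Lcn8, Lcn9, Cst11, Rnase9 and Akr1b7 were not well above background on any array. The summed signal of the 12 genes was 9.01 to 10.59 in sham, 7.90 to 9.41 in BPH and 10.34 to 10.58 in BPH+ghrelin. Of 4 urothelial genes on the array, 3 passed the filter: Upk1a was lower in BPH (-1.75, adjusted p 0.0249) and BPH+ghrelin (-2.0, adjusted p 0.0123) than in sham, Upk1b was higher (1.28, adjusted p 0.0180, and 0.93, adjusted p 0.0379), and Upk2 was not above background on any array. The summed signal of 4 urothelial genes was 8.66 to 9.56 in sham, 7.99 to 8.13 in BPH and 7.68 to 8.06 in BPH+ghrelin, and its part in the result was not tested.

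Of 8 epithelial genes, 2 were called higher and 0 lower in BPH against sham, 0 in BPH+ghrelin against BPH, and 1 higher in BPH+ghrelin against sham. Krt8 was higher in BPH (0.96, adjusted p 0.00908) and BPH+ghrelin (0.75, adjusted p 0.0170) than in sham, and Krt14 was higher in BPH (0.72, adjusted p 0.0447). Others read in the opposite direction in BPH without being called, such as Tp63, a factor of basal cells (-0.73, adjusted p 0.112). The summed signal of the 8 genes overlapped between the groups (15.81 to 15.90 in sham, 15.72 to 16.26 in BPH and 15.66 to 15.87 in BPH+ghrelin). Of 8 stromal and smooth muscle genes, Myh11, the smooth muscle myosin, was called lower in BPH+ghrelin than in BPH (-0.96, adjusted p 0.0156) and sham (-1.07, adjusted p 0.00245). Their summed signal was 13.73 to 14.56 in sham, 13.94 to 14.87 in BPH and 14.08 to 14.25 in BPH+ghrelin, highest on BPH replicate 3, where Semg1 was lowest in BPH.

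Of 5 leukocyte genes on the array, 3 passed the filter. Adgre1, a macrophage receptor, was higher in BPH than in sham (1.18, adjusted p 0.0434), and Ptprc, the leukocyte antigen CD45, was lower in BPH+ghrelin than in BPH (-0.82, adjusted p 0.0370) and sham (-0.78, adjusted p 0.0190). Of 4 striated muscle genes tested, Ckm, the muscle creatine kinase, was lower in BPH (-1.90, adjusted p 0.00451) and BPH+ghrelin (-1.96, adjusted p 0.00261) than in sham. Adipocyte genes varied within all groups (summed signal 6.59 to 12.18 in sham, 10.27 to 11.69 in BPH and 5.75 to 12.07 in BPH+ghrelin). With limma, 0 of 3 tested were called in any comparison, and 0 had an unadjusted p under 0.05. Of all genes tested, 5173 of 19548 in BPH against sham, 4168 of 19747 in BPH+ghrelin against BPH and 4556 of 19195 in BPH+ghrelin against sham had one. The part of these cells in the signals of the secretory genes was not tested.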

How the data were processed

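The arrays were Agilent one-colour rat arrays with 44254 spots, 42877 of them not controls. The authors deposited the intensity of each spot as given by the scanner software (Feature Extraction 11.0.1.1), with background subtracted and not normalized between arrays. They also deposited a matrix of log2 values, quantile normalized with GeneSpring and with a floor at 2.32, which was used as an alternative only.

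Here, outlier spots were removed, spots of a probe averaged, and log2 signals of 30356 probes quantile normalized over 9 arrays, as in the methods; no pseudocount was used. Names came from the RefSeq table of GRCr8 (59.3% of probes); array annotation belongs to another assembly, and probe coordinates were not used. A probe entered a comparison if well above background on at least 3 of 6 arrays, and the brightest passing probe represented a gene. Groups were compared with limma 3.58.1 (R 4.3.3; lmFit and eBayes, 3 groups, 9 arrays) and Benjamini-Hochberg adjustment over all genes; a call is an adjusted p under 0.05. The fit was tested on simulated data. The precision is limited by 3 arrays per group. Promoter windows of RefSeq were aligned globally with Biopython 1.88 (Python 3.11.15), and identity counts gap positions.

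The members, the lists and the tests were chosen with earlier results of these data known. Named were the members with every probe and called genes of each other list (otherwise up to 2 of the brightest). Also named were the 5 genes with a symbol most like Semg1 in each of 2 ways. Genes named beyond this rule (such as Wfdc5, Slpi, F13a1, Hoxb13, Sbp, Andpro, Tp63 and markers not above background) were chosen after values were seen. Alternatives were other scaling, background correction, filters, probes, values and blocks, and leaving out each array. Some genes of the lists are not reported here.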

Additional observations from a re-analysis of the deposited data

How the results depend on the processing

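The difference of the median over the 7 genes kept its sign under all alternatives in all 3 comparisons. It moved by more than the spread between arrays with normexp background correction, to -1.89 in BPH against sham and to -2.43 in BPH+ghrelin against sham. With each array left out, it ranged from -4.90 to -2.40 (lowest size without BPH replicate 3) in BPH against sham, from -5.35 to -4.07 in BPH+ghrelin against sham, and from -1.74 to -0.29 in BPH+ghrelin against BPH. Scaling to the 75th percentile moved the median of all genes in BPH against sham from 0.04 to -0.09, and Svs5 in this comparison from 0.26 to -0.05. With slide as a block, where BPH and sham are linked only through the BPH+ghrelin arrays, the difference between BPH and sham was -7.34 for Semg1, 2.57 for Svs6 and -1.46 for Svs5.

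In BPH+ghrelin against BPH, where none of the 7 genes was called, Svs4 turned to 0.55 and Svs3a to 0.77 with slide as a block; with 1 array left out, Svs4 turned to 0.10 (without BPH replicate 1) and 0.19 (without BPH+ghrelin replicate 3), Svs3a to 0.37 (without BPH+ghrelin replicate 3) and Svs5 to -0.28 (without BPH+ghrelin replicate 1). Their ranges over these fits were -1.45 to 0.19, -1.17 to 0.37 and -0.28 to 0.54. Against sham, Svs5 turned to -0.10 with slide as a block and to -0.027 without BPH+ghrelin replicate 1, and Svs6 to -0.0096 and -0.11 without BPH+ghrelin replicate 3 or sham replicate 2. Their ranges were -0.03 to 0.79 and -0.11 to 0.66. The call of Semg1 was also lost without a filter on dim probes (adjusted p 0.0706). The ratio of Svs4 to Tgm4 moved with normexp from -1.52 to -2.31 in BPH against sham and from -1.19 to -2.30 in BPH+ghrelin against sham. That of Svs3a to Svs3b moved from -0.54 to -1.30 and from 0.22 to -1.17, and was -0.94 with the deposited matrix in the latter.

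The number of all genes called was 849 in BPH against sham, and 533 without a filter on dim probes, 242 with a replicate block and 2 with slide as a block; it was 119 to 3068 with each array left out, which was added after the data had been seen. In BPH+ghrelin against BPH, it was 293, and 517 with scaling to the 75th percentile, 188 without the filter, 20 with a replicate block, 2 with slide as a block and 3 to 396 with each array left out. Between BPH+ghrelin and sham, it was 1207, and 462 with a replicate block, 85 with slide as a block and 226 to 1927 with each array left out. The replicate block changed no call of the 7 genes. Replicate numbers pair no samples in the labels, and same-numbered arrays did not deviate together (r -0.022, 0.0016 and -0.016 in BPH against sham; -0.067, 0.073 and -0.045 in BPH+ghrelin against BPH; 0.28, -0.025 and -0.14 in BPH+ghrelin against sham). The cause of these changes was not tested. Signals near background limit Svs3b, Svs5 and, in the BPH groups, Svs3a.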
